A study of Rattus norvegicus with 44 samples.

Results

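The 8 genes of the p53 and growth arrest response described here, in choroid plexus and blood of rats exposed to heat or to amphetamine, were Cdkn1a, Gadd45a, Gadd45g, Mdm2, Btg2, Bbc3, Bax and Ccng1. They were chosen by name, with earlier results of these data known, and a gene's level is that of its brightest probe. Of the 8 members, 7 had a probe among the 10412 genes of the deposited table, and each of the 7 had a value on all 44 arrays. Btg2 was not analysed here. Each level below is a log2 intensity of 1 probe, so levels are compared between arrays for a gene and never between genes.

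All animals were male Sprague-Dawley rats of the NCTR strain, 3 months old, with no genetic change named. They received saline, environmentally-induced hyperthermia (EIH, heat from the surroundings without a drug) or amphetamine (AMPH) at doses the labels describe as neurotoxic, and tissue was taken 3 h or 1 day later. Choroid plexus was studied in saline, EIH and AMPH groups at 3 h and in EIH and AMPH groups at 1 day, and trunk blood in all 3 groups at both times, with 4 arrays in each of the 11 groups. RNA of 3 rats was pooled for each array of choroid plexus, while each blood array holds a single rat's RNA. The choroid plexus groups of 1 day were set against saline at 3 h, since no choroid plexus saline group of 1 day was analysed here, and treatment and time cannot be told apart there. The EIH pools of 1 day are called controls in their titles and EIH in their source and treatment labels, which were followed. In the titles, 5 rat numbers recur over 7 of the pools, and 17 of the blood rats are also in a pool. Of the 5 numbers, 2 stand in pools of different treatments, namely saline 3 h replicate 4 with AMPH 1 day replicate 2 and AMPH 3 h replicate 2 with EIH 1 day replicate 3, and 1 stands in EIH pools of both times. Of the 17 blood rats 2 have a pool of the other time. If a number stands for 1 rat, these titles cannot all hold as written, and the labels of the samples concerned are to that extent in doubt.

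The tissue labels were borne out by markers: 11 of 12 choroid plexus epithelium genes were higher in choroid plexus and 8 of 8 erythroid genes were higher in blood (limma, adjusted p under 0.05, saline groups of 3 h). The deposited values fall into 2 sets, the 24 arrays of 3 h with median intensities of 139 to 146 and the 20 arrays of 1 day with medians of 165 to 171. In choroid plexus, AMPH 1 day replicate 2 stood apart: its median correlation with the other choroid plexus arrays was 0.851, and the next lowest was 0.919. Its mean log2 level of epithelium markers was 10.21, below the 12.58 to 12.94 of the other 19 choroid plexus arrays. Its mean level of stroma and meninges markers was 13.69, above their 10.97 to 12.76, and its neutrophil marker mean was 7.97, above their 4.80 to 5.99. In blood, saline 1 day replicate 4 was the least like the others, with a median correlation of 0.834 and 17.1% of its values blank. Results that rest on either array are given with and without it, except for Ccne1 in blood at 1 day and the order of the 11 groups. In such bulk samples, fewer cells of a type and less RNA per cell cannot be told apart.

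When DNA is damaged or a cell is stressed, the transcription factor p53 is stabilised and switches on genes that halt the cell cycle, repair DNA or trigger apoptosis. Cdkn1a encodes p21, the inhibitor of cyclin-dependent kinases that carries out much of the arrest. Gadd45a and Gadd45g encode small stress sensor proteins that bind cell cycle and MAP kinase pathway partners, Btg2 an antiproliferative protein, Ccng1 cyclin G1, Bbc3 (PUMA) and Bax promoters of cell death of the Bcl-2 family, and Mdm2 the ubiquitin ligase that removes p53 again. Several of these genes also respond to other inputs, among them glucocorticoids, cytokines and heat, so their transcripts are not a measure of p53 activity alone.

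RefSeq (GRCr8) held a promoter for 6 of the 8 members, not for Bbc3 or Bax. The windows ran from 250 bases before to 50 after a transcript start, and a 10-letter p53 half-site pattern, the unit that p53 binds in pairs, was matched in those of Cdkn1a, Gadd45a and Ccng1. The same pattern was matched in 7.98% of 33469 RefSeq promoter windows. The 250 bases before the start are shown for these 3 genes and for Gadd45g, a member called in blood whose window had no match; the start of the RefSeq gene model of Cdkn1a lies within the stretch shown for it. Capitals mark matches to the half-site (all but Gadd45g), a GC box GGGCGG on either strand (Gadd45a, Ccng1), a TATA box TATAAA (Gadd45g) and a heat shock element core GAANNTTC (Ccng1).
Cdkn1a, chr20:7150682-7150931, plus strand: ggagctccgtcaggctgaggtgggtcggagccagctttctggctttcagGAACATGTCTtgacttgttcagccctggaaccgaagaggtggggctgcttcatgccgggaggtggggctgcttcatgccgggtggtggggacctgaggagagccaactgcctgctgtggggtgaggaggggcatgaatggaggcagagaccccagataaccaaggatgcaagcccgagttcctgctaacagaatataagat
Gadd45a, chr4:97486800-97487049, minus strand: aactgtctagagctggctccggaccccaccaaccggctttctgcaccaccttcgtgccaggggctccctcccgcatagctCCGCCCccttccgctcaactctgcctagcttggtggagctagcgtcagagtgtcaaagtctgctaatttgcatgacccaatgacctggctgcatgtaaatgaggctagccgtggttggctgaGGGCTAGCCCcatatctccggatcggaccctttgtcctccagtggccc
Ccng1, chr10:25684877-25685126, minus strand: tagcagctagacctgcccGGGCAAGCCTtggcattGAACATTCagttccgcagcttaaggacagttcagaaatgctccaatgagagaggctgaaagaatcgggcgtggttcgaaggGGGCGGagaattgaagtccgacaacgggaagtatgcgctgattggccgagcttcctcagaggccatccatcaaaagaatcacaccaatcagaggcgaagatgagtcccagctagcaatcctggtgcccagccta
Gadd45g, chr17:13530352-13530601, minus strand: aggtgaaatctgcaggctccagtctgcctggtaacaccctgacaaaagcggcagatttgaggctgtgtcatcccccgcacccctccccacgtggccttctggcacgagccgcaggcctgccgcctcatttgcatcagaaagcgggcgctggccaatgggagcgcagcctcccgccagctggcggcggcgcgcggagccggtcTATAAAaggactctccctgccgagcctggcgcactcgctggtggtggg
The half-site match began 201 bases before the start in Cdkn1a, 48 before it in Gadd45a and 232 before it in Ccng1. The TATA box of Gadd45g began 48 bases before the start; this pattern was in 14.2% of all windows. The heat shock element core of Ccng1, found in 8.59% of all windows, began 215 bases before its start. Both strands were searched for every pattern. GC boxes, found in 33.1% of windows, also lay in the Mdm2 and Btg2 windows, and a cAMP response element TGACGTCA (1.83%) lay in that of Btg2. None of the 6 windows held an AP-1 site TGANTCA (7.33%) or a STAT site TTCNNNGAA (8.87%). These are matches of letters, not measured sites.

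The members were set differently in the 2 tissues of rats given saline. Under saline at 3 h all 7 differed between choroid plexus and blood, on a background in which 56.2% of all genes tested did, so the count by itself says little. Of the arrest genes, Cdkn1a was 13.1-fold and Gadd45g 23.3-fold higher in choroid plexus. Cdkn1a was at 11.36, 11.31, 11.55 and 11.36 in the 4 saline pools and at 7.34, 7.74, 7.76 and 7.91 in the 4 saline bloods, a difference of 3.71 ± 0.16 (SE, limma adjusted p = 7.9e-07). Gadd45g was at 12.35 ± 0.16 (SD, n = 4) and 7.81 ± 0.15, a difference of 4.54 ± 0.14 (limma adjusted p = 2.3e-07). The groups were far apart for both genes.

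Mdm2, the feedback gene, was higher in choroid plexus by 1.24 ± 0.12 (limma adjusted p = 6e-05), and by 0.81 on its other probe. Ccng1 was higher by 2.08 ± 0.19 (limma adjusted p = 3.7e-05), but its other probe gave 0.25 (adjusted p = 0.605), so the tissue difference of Ccng1 depends on the probe. The death genes among the members ran the other way. Bbc3 was at 8.47 ± 0.32 in choroid plexus and 11.09 ± 0.30 in blood, a difference of -2.61 ± 0.22 (limma adjusted p = 2.3e-05), and Bax differed by -0.73 ± 0.17 (adjusted p = 0.00749). Of 16 other Bcl-2 family genes 3 were called higher and 9 lower in choroid plexus, beside 56.2% of all genes called. The lower ones included the survival genes Bcl2 (-1.63) and Bcl2l1 (-2.10), so this direction was not particular to death genes. Gadd45a was the only member whose saline groups overlapped. It differed by -0.77 ± 0.27 (limma adjusted p = 0.039), and the call ended without choroid plexus saline replicate 1, 3 or 4 or blood saline replicate 2, 3 or 4 (adjusted p 0.0579 to 0.0925). The other 6 members did not overlap between the tissues, beside 56.6% of all genes.

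**Figure D1:**
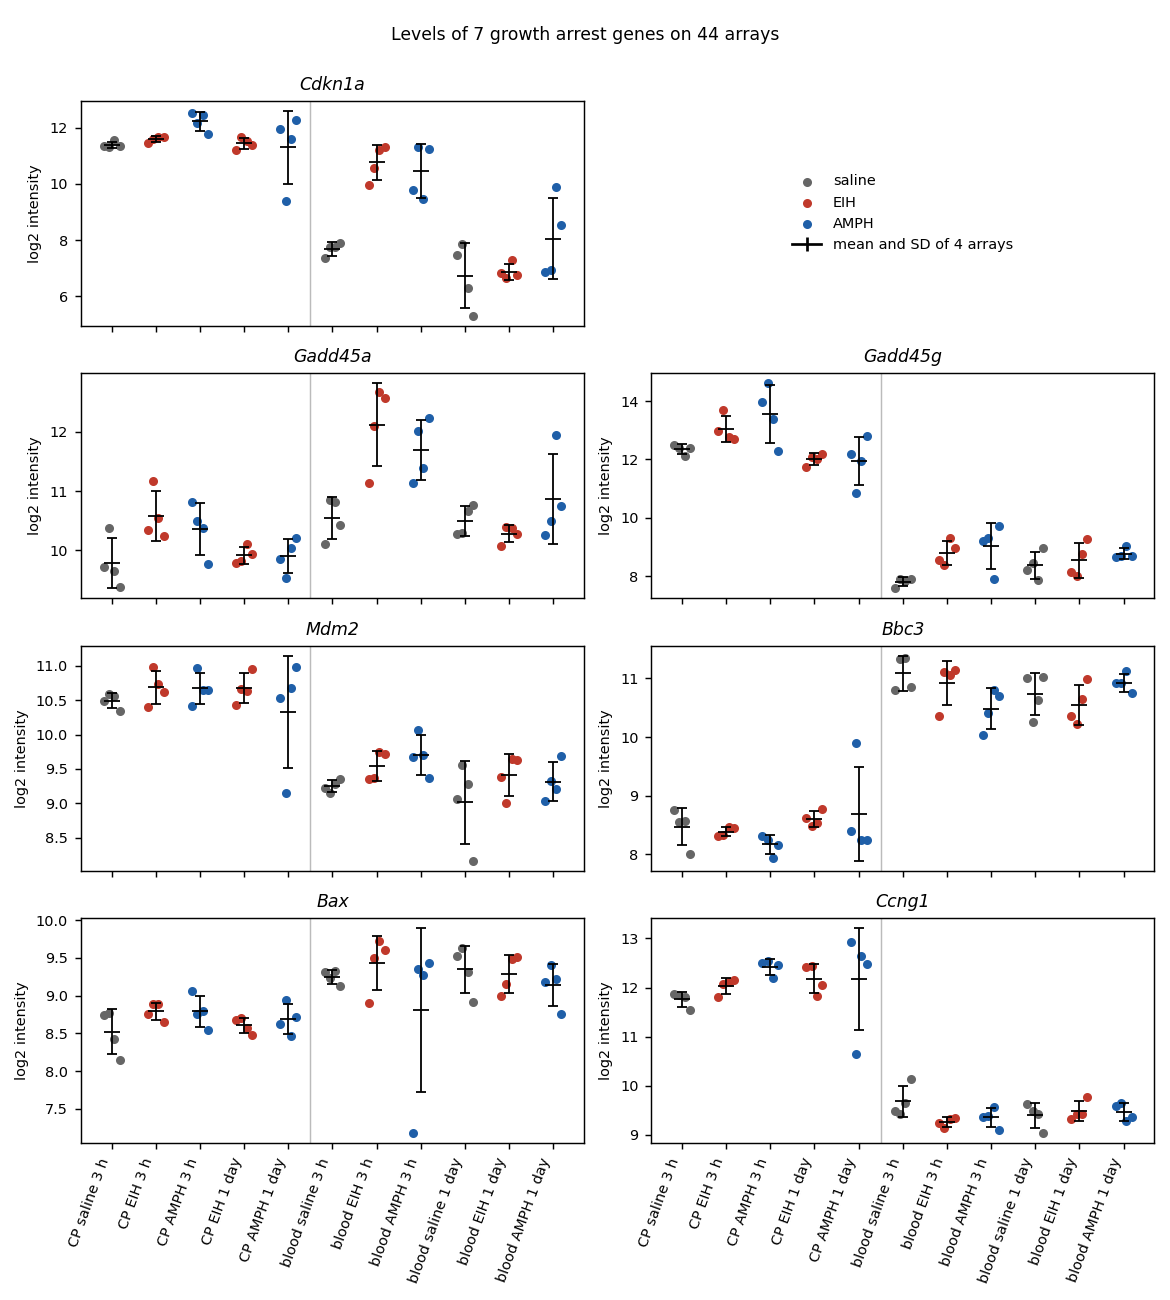
Levels of the 7 measured members on all 44 arrays (vertical axis, log2 intensity of the brightest probe) by tissue, treatment and time; points are arrays, and black marks give the mean and SD of the 4 arrays of a group. Cdkn1a in blood lies at 7.34 to 7.91 under saline at 3 h and at 9.47 to 11.32 in the EIH and AMPH groups of 3 h, and the low choroid plexus point of Cdkn1a and Ccng1 at 1 day is AMPH replicate 2.

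In blood at 3 h, Cdkn1a rose 8.47-fold after EIH and 6.80-fold after AMPH, Gadd45a rose 2.97-fold after EIH and Gadd45g rose 2.34-fold after AMPH. Mdm2, Bbc3, Bax and Ccng1 were not called after either treatment. After EIH 2 of the 7 members were called, beside 12.5% of all genes tested (5.54% higher), and after AMPH 2 of 7, beside 8.37% (4.95% higher). Groups without overlap were more common than calls: 4 of 7 members after EIH, beside 25.1% of all genes, and 4 of 7 after AMPH, beside 21.4%. The EIH and AMPH comparisons share the same 4 saline arrays.

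Cdkn1a stood at 7.34, 7.74, 7.76 and 7.91 in the saline bloods of 3 h. After EIH it was at 9.97, 10.58, 11.21 and 11.32. After AMPH it was at 9.79, 11.30, 9.47 and 11.26. All 8 exposed rats lay above all 4 saline rats, and the AMPH rats fell into a higher and a lower pair. The rise was 3.08 ± 0.61 after EIH (SE; 95% interval 1.80 to 4.36, limma adjusted p = 0.00209) and 2.77 ± 0.61 after AMPH (1.49 to 4.05, adjusted p = 0.00917). Ranked from the largest rise downwards, Cdkn1a was number 51 of 9893 genes after EIH and number 98 of 9863 after AMPH. The call held under every alternative run, with adjusted p from 0.00021 to 0.00971 after EIH and from 0.00085 to 0.0378 after AMPH.

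Gadd45a stood at 10.10, 10.86, 10.81 and 10.43 under saline. After EIH it was at 11.14, 12.09, 12.67 and 12.58, and after AMPH at 11.14, 12.01, 11.39 and 12.23. Here too every exposed rat exceeded every saline rat. The rise after EIH was 1.57 ± 0.36 (0.83 to 2.31, limma adjusted p = 0.00546) and held under every alternative run (adjusted p 0.00078 to 0.0352). The difference after AMPH was 1.14 ± 0.36 and missed the threshold (limma adjusted p = 0.0511), and was called without AMPH 3 h replicate 1 (0.0397) or without saline 1 day replicate 4 (0.0483), the array of another group that stood apart.

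Gadd45g, the sister gene, stood at 7.59, 7.92, 7.83 and 7.89 under saline. After EIH it was at 8.56, 8.38, 9.32 and 8.96, all above saline, and after AMPH at 9.22, 9.31, 7.91 and 9.71, where replicate 3 lay within the saline range. The EIH difference of 1.00 ± 0.34 was not called (limma adjusted p = 0.0625), and was called without saline 1 day replicate 4 (0.0481). The AMPH difference of 1.23 ± 0.34 was called (0.52 to 1.94, limma adjusted p = 0.0298). That call ended when any saline 3 h array or AMPH replicate 1, 2 or 4 was left out (adjusted p 0.0531 to 0.115) and with only the compared groups in the fit (0.0914).

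The other members were not called in blood at 3 h. Mdm2 was at 9.15 to 9.35 under saline, 9.35 to 9.74 after EIH and 9.36 to 10.07 after AMPH. Its difference was 0.29 after EIH (limma adjusted p = 0.521) and 0.45 after AMPH (adjusted p = 0.31), where the groups did not overlap. Ccng1 was at 9.43 to 10.15 under saline and at 9.14 to 9.35 after EIH, a difference of -0.42 ± 0.18 with no overlap (limma adjusted p = 0.155). After AMPH Ccng1 was at 9.10 to 9.56, overlapping saline, with a difference of -0.33 (limma adjusted p = 0.324). On the other Ccng1 probe the EIH rats, at 7.79 to 8.96, overlapped the saline rats, at 8.71 to 9.29. Its AMPH mean of 9.11 lay above its saline mean of 8.97, so these Ccng1 differences depend on the probe.

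Of the death genes, Bbc3 was at 10.80 to 11.35 under saline and at 10.03 to 10.80 after AMPH, a difference of -0.60 ± 0.24 (limma adjusted p = 0.138); the groups met at 10.80 without overlapping. After EIH its difference was -0.17, with overlap. Bax was at 9.13 to 9.32 under saline and at 7.18, 9.35, 9.27 and 9.43 after AMPH, where replicate 1 lay far below the rest. The Bax difference after AMPH was -0.44 (limma adjusted p = 0.524), and 0.10 without that array. After EIH the Bax difference was 0.18.

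**Figure D2:**
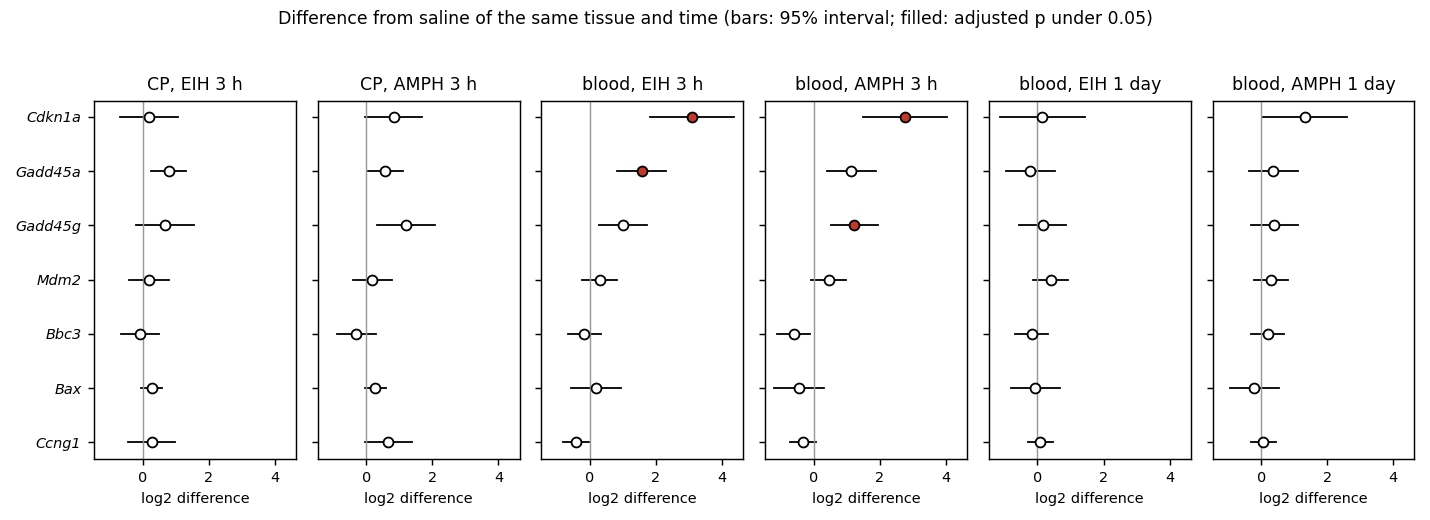
Differences from saline of the 7 measured members (horizontal axis, log2 difference with its 95% interval; filled points are called at a limma adjusted p under 0.05), for choroid plexus at 3 h and blood at 3 h and 1 day. In blood at 3 h, Cdkn1a and Gadd45a are filled after EIH and Cdkn1a and Gadd45g after AMPH; no member is filled in choroid plexus (CP) at 3 h or in blood at 1 day.

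The exposures were also set against each other in blood at 3 h. Between AMPH and EIH 0 of 7 members were called, beside 0.0397% of all genes, and 0 of 7 had an unadjusted p under 0.05, beside 9.47%. For Cdkn1a the difference AMPH minus EIH was -0.32 with a 95% interval of -1.60 to 0.96, which leaves room for a sizeable difference either way. For Gadd45a it was -0.43 (-1.17 to 0.31), and for Gadd45g 0.23 (-0.48 to 0.95).

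White cell markers moved in the same blood samples. Of 9 measured neutrophil genes 7 rose after EIH at 3 h, with a median difference of 2.26, and 6 rose after AMPH, with a median of 2.33. Their summed intensity was 22790 to 36038 under saline, 52965 to 95762 after EIH and 74808 to 119357 after AMPH. Of 7 tested T cell genes 6 fell after each treatment, with medians of -2.04 and -1.81, and their summed intensity went from 21783 to 27317 under saline to 5049 to 13251 after EIH and 6355 to 14077 after AMPH. Of the monocyte and macrophage genes 2 of 8 rose after EIH and 2 of 7 after AMPH, with medians of 0.62 and 0.71, and their summed intensity was 31910 to 38926 under saline, 49954 to 82555 after EIH and 49539 to 70654 after AMPH. Of 4 B cell genes 2 fell after EIH and 1 after AMPH, with medians of -1.33 and -0.53, and their summed intensity was 3370 to 4818 under saline, 1234 to 2474 after EIH and 1732 to 2586 after AMPH. For these 4 marker lists the summed intensities of the exposed rats thus lay apart from those of the saline rats. A sum rests on the brightest genes of its list. In saline blood of 3 h the monocyte and macrophage gene Lyz2 was at 14.94, and the next of that list, Cd68, at 11.18. Of 9 NK and cytotoxic lymphocyte genes 1 fell after EIH and 2 after AMPH, with medians of -0.92 and -0.99. Their summed intensity was 14342 to 22550 under saline, 4855 to 14556 after EIH, which overlapped saline, and 6634 to 8872 after AMPH. The part of these shifts in the Cdkn1a and Gadd45 differences was not tested.

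**Figure D3:**
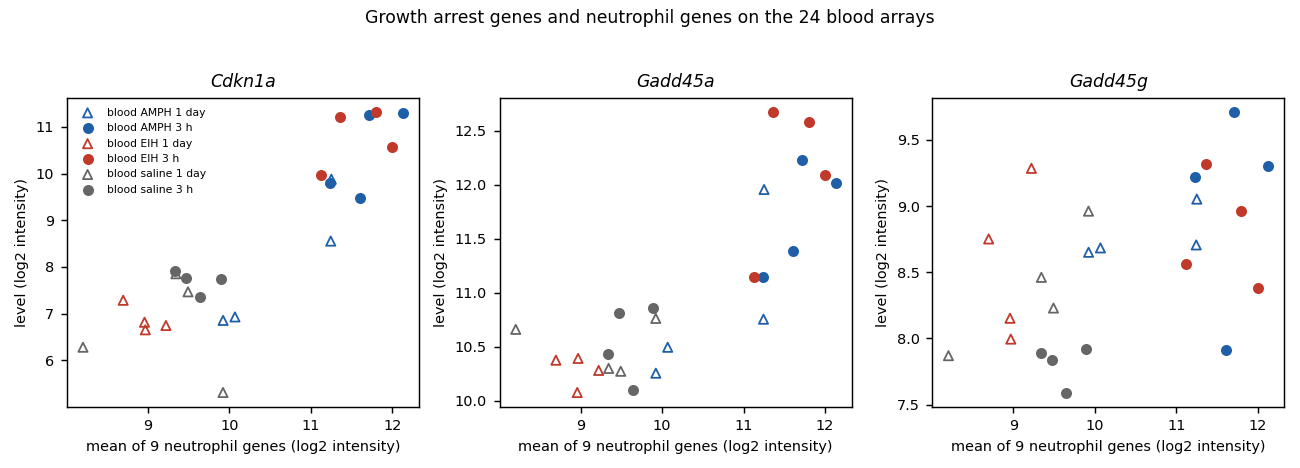
Levels of Cdkn1a, Gadd45a and Gadd45g on the 24 blood arrays (vertical axes, log2 intensity) against the mean log2 intensity of 9 neutrophil genes on the same array (horizontal axis); points are arrays by treatment and time. The arrays of the EIH and AMPH groups of 3 h, with neutrophil means of 11.12 to 12.13, lie at the upper right for Cdkn1a, AMPH 1 day replicate 3 lies among them at 9.88 and replicate 4 below them at 8.55, and the saline arrays of 3 h have neutrophil means of 9.33 to 9.89.

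At 1 day no member was called in blood. After EIH 0 of 7 members were called, beside 0.0512% of all genes, and 0 of 7 had an unadjusted p under 0.05, beside 10.1%. Cdkn1a was at 7.47, 7.85, 6.28 and 5.31 under saline and at 6.81, 6.65, 7.28 and 6.74 after EIH, a difference of 0.15 (95% interval -1.13 to 1.43), and -0.33 without saline replicate 4. After AMPH 0 of 7 were called, beside 1.95%, and 1 of 7, Cdkn1a, had an unadjusted p under 0.05, beside 17.7%. Cdkn1a was at 6.85, 6.93, 9.88 and 8.55 after AMPH at 1 day, so replicates 3 and 4 lay above every saline rat and replicates 1 and 2 among them. The difference was 1.33 ± 0.61 (0.05 to 2.61, limma adjusted p = 0.263), and 0.85 without saline replicate 4 (0.565). The same replicates 3 and 4 had neutrophil marker means of 11.25 and 11.24, and replicates 1 and 2 of 9.92 and 10.07; neutrophil genes were called higher in this group for 3 of 9. Between AMPH and EIH at 1 day 0 of 7 members were called, beside 0% of all genes, and 0 of 7 had an unadjusted p under 0.05, beside 11.7%; the Cdkn1a difference was 1.18 (adjusted p = 0.477).

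The EIH response of blood was smaller at 1 day than at 3 h for 2 of the 7 members, beside 8.62% of all genes (3.80% lower at 1 day). For Cdkn1a the EIH effect at 1 day minus that at 3 h was -2.93 ± 0.87 (-4.74 to -1.12, limma adjusted p = 0.0395), and -3.41 without saline 1 day replicate 4 (0.0228). For Gadd45a it was -1.79 ± 0.50 (-2.84 to -0.74, adjusted p = 0.0332). Both calls lie close to the threshold. The Cdkn1a call ended in 13 of 16 fits that left out 1 array (adjusted p 0.0504 to 0.0797), the exceptions being EIH 3 h replicate 1 and saline 1 day replicates 3 and 4. The Gadd45a call ended in 8 of 16 (0.0504 to 0.0742), namely without saline 3 h replicate 1 or 4, EIH 3 h replicate 3 or 4, saline 1 day replicate 4 or EIH 1 day replicate 1, 3 or 4. For AMPH the change of effect with time was called for 0 of 7 members, beside 0.379%, and 1 of 7, Bbc3 with 0.80, had an unadjusted p under 0.05, beside 13.5%. The Cdkn1a value for AMPH was -1.44 (-3.25 to 0.37). In the EIH test 5 of 9 neutrophil genes and 1 of 8 monocyte and macrophage genes were likewise called lower at 1 day, while 4 of 7 T cell genes, with a list median of 2.21, and 1 of 4 B cell genes were called higher. Their part in the result was not tested.

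In choroid plexus at 3 h no member was called after either treatment with all 20 arrays in the fit. After EIH 0 of 7 were called, beside 0.341% of all genes, and 1 of 7, Gadd45a, had an unadjusted p under 0.05, beside 12.9%. After AMPH 0 of 7 were called, beside 0.156%, and 2 of 7, Gadd45a and Gadd45g, had an unadjusted p under 0.05, beside 14.9%. Both comparisons share the saline pools.

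Cdkn1a was at 11.36, 11.31, 11.55 and 11.36 in the saline pools. After AMPH it was at 12.51, 12.18, 12.46 and 11.76, above every saline pool, and after EIH at 11.45, 11.59, 11.67 and 11.67, which overlapped saline. The difference was 0.83 ± 0.41 after AMPH (-0.04 to 1.70, limma adjusted p = 0.369) and 0.20 after EIH (adjusted p = 0.897). Ccng1 showed the same layout of groups. It was at 11.86, 11.84, 11.80 and 11.53 under saline, at 12.50, 12.55, 12.19 and 12.46 after AMPH, and at 11.80, 12.07, 12.11 and 12.15 after EIH. Its difference after AMPH was 0.66 ± 0.34 (limma adjusted p = 0.384), and 1.47 on its other probe (adjusted p = 0.217). Cdkn1a and Ccng1 were the 2 of 7 members whose AMPH and saline pools did not overlap, beside 12.8% of all genes. On the other Ccng1 probe these pools overlapped, at 9.59 to 11.52 after AMPH and 8.48 to 10.28 under saline. Without AMPH 1 day replicate 2, the array that stood apart and that enters here only through the spread shared by all groups, both were called at 3 h with the same differences (limma adjusted p = 0.0247 for Cdkn1a and 0.0321 for Ccng1), while genes called went from 16 to 330.

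Gadd45g was at 12.49, 12.40, 12.12 and 12.40 in the saline pools, at 12.97, 13.68, 12.78 and 12.70 after EIH and at 13.97, 14.61, 13.37 and 12.29 after AMPH. The EIH pools all lay above saline, the 1 member of 7 without overlap there, beside 16.1% of all genes, and of the AMPH pools replicate 4 lay among them. The difference was 0.68 ± 0.42 after EIH (limma adjusted p = 0.524) and 1.20 ± 0.42 after AMPH (0.33 to 2.08, adjusted p = 0.188). Without AMPH 3 h replicate 4 it was 1.63 and was called (limma adjusted p = 0.0267). Gadd45a was at 9.38 to 10.38 under saline, 10.24 to 11.18 after EIH and 9.77 to 10.82 after AMPH. Its difference was 0.79 ± 0.25 after EIH (0.26 to 1.32, limma adjusted p = 0.189) and 0.58 ± 0.25 after AMPH (adjusted p = 0.286).

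Mdm2 differed by 0.19 after EIH and 0.18 after AMPH, Bax by 0.27 after each, and Bbc3 by -0.09 and -0.30. The lowest limma adjusted p among these was 0.439, for Bax after AMPH. Between AMPH and EIH 0 of 7 members were called, beside 0.00973% of all genes, and 0 of 7 had an unadjusted p under 0.05, beside 2.83%. The AMPH pools lay wholly above the EIH pools for Cdkn1a, with a difference of 0.63 ± 0.41, and for Ccng1, with 0.39 ± 0.34, 2 of 7 members beside 4.80% of all genes. On the other Ccng1 probe the AMPH pools, at 9.59 to 11.52, overlapped the EIH pools, at 8.90 to 10.49. Neutrophil markers were called for 0 of 9 in choroid plexus at 3 h, with medians of 0.11 after EIH and 0.43 after AMPH.

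At 1 day no member was called in choroid plexus against saline of 3 h or between treatments, and 0 of 7 had an unadjusted p under 0.05 in any of these 3 comparisons (12.3% of all genes for EIH, 16.9% for AMPH and 5.43% between them). Called genes made up 0% of all genes for EIH against saline, 0.0294% for AMPH against saline and 0% between the treatments. The median of all genes was itself 0.17 above saline of 3 h for EIH, and -0.05 once every array had the same median. For AMPH against saline of 3 h these medians were 0.11 and -0.13. Cdkn1a was at 11.21, 11.66, 11.51 and 11.39 after EIH and at 11.94, 9.40, 11.60 and 12.27 after AMPH. Ccng1 was at 12.42, 12.43, 11.83 and 12.05 after EIH and at 12.92, 10.64, 12.64 and 12.48 after AMPH. The low values of 9.40 and 10.64 belong to replicate 2, in which Bbc3 was high at 9.89 against 8.24 to 8.39 in the other pools of its group. Without it, Ccng1 was higher after AMPH than under saline of 3 h by 0.92 (limma adjusted p = 0.0409), and 0.41 (adjusted p = 0.526) with it.

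The Cdkn1a response to EIH at 3 h differed between the tissues by test. The EIH effect in choroid plexus minus that in blood was -2.88 ± 0.77 (-4.43 to -1.33, limma adjusted p = 0.0184), and it remained called under every alternative run (adjusted p 0.0001 to 0.0452). Cdkn1a was the 1 of 7 members called in this test, beside 6.00% of all genes. For AMPH 0 of 7 were called, beside 3.11%, and 2 of 7 had an unadjusted p under 0.05, beside 17.9%: Cdkn1a with -1.94 (adjusted p = 0.158) and Ccng1 with 0.99 (adjusted p = 0.144). Both were called with only the compared groups in the fit (limma adjusted p = 0.0405 and 0.0334). The highest Cdkn1a level in the blood of an exposed rat at 3 h was 11.32, next to the lowest of the saline pools at 11.31. Neutrophil genes were called lower in the EIH test for 2 of 9 and in the AMPH test for 0 of 9.

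Over the 11 groups, mean Cdkn1a spanned 5.50 log2 units, from choroid plexus AMPH 3 h at 12.23 to blood saline 1 day at 6.73. Of its 10 pairs of neighbouring groups in that order, 2 did not overlap: choroid plexus AMPH 3 h above EIH 3 h, and blood saline 3 h above blood EIH 1 day. Gadd45g spanned 5.75, from choroid plexus AMPH 3 h at 13.56 to blood saline 3 h at 7.81, with all choroid plexus groups above all blood groups and 2 of its 10 neighbour pairs apart. Gadd45a spanned 2.34, from blood EIH 3 h at 12.12 to choroid plexus saline 3 h at 9.78, with none of its 10 neighbour pairs apart. Ccng1 spanned 3.16 and Bbc3 2.91, each with 1 neighbour pair apart, and Mdm2 spanned 1.67 and Bax 0.908, with none. These orders and spans include choroid plexus AMPH 1 day replicate 2 and blood saline 1 day replicate 4, the arrays that stood apart. Their Cdkn1a values of 9.40 and 5.31 were the lowest of their groups, and no order without them is given here. The orders also mix the scaled sets of 3 h and 1 day.

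Of 38 listed p53 target genes other than the members 23 were tested in blood at 3 h. After EIH 3 rose and 3 fell, 6 of 23 beside 12.5% of all genes, with a median difference of 0.18 beside 0.08 for all genes. Gadd45b, the third GADD45 gene, rose by 1.49 (limma adjusted p = 0.00127), the stress protein gene Tp53inp1 by 1.45 (0.00159) and Pidd1, whose product activates caspase-2, by 1.17 (0.00211). Zmat3, an RNA-binding protein gene, differed by -2.34 (limma adjusted p = 0.0012), Sesn1, a stress-induced sestrin that restrains mTORC1, by -2.21 (9.3e-05) and Ptp4a3, a phosphatase gene, by -1.47 (0.00227). These 6 calls held under every alternative run. After AMPH 4 of the 23 rose and 2 fell, beside 8.37% of all genes, with a median of 0.00 beside 0.01. The shifts of white cell genes given above lie in the same comparisons, and their part in these counts was not tested.

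Pidd1 was at 8.81, 9.32, 9.55 and 9.37 under saline and at 11.05, 11.39, 11.25 and 10.95 after AMPH, with no overlap and a rise of 1.89 (limma adjusted p = 0.00019). Sesn1 was at 10.11, 10.09, 9.96 and 9.75 under saline, 8.22, 7.30, 7.86 and 7.69 after EIH and 7.53, 8.19, 8.76 and 8.32 after AMPH, where it differed by -1.78 (limma adjusted p = 0.00117). Sesn1 was thus lower in all 8 exposed rats, whereas Cdkn1a was higher in all 8. Zmat3 was at 8.46, 8.52, 8.60 and 8.47 under saline and at 7.68, 5.76, 5.60 and 5.65 after EIH, also without overlap. Tp53inp1 rose by 1.18 after AMPH (limma adjusted p = 0.0126), and with Pidd1 and Sesn1 kept its call under every alternative run. Epha2, an ephrin receptor gene, rose by 1.18 (adjusted p = 0.0298), Gadd45b by 1.07 (0.0201), and Ptp4a3 differed by -1.10 (0.0258). These last 3 calls ended when saline 3 h replicate 1 or AMPH replicate 2 was left out (limma adjusted p of at least 0.0562). The Gadd45b call also ended without AMPH replicate 1, that of Epha2 without saline replicate 4 or AMPH replicate 3 or 4, and that of Ptp4a3 without saline replicate 2, 3 or 4 or AMPH replicate 4.

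**Figure D4:**
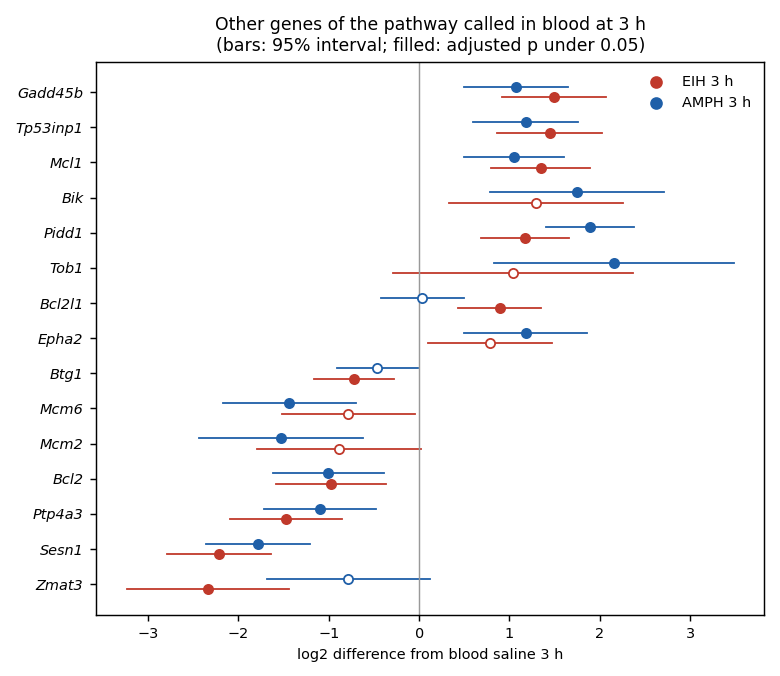
Other genes of the pathway lists that were called in blood at 3 h after EIH, AMPH or both (vertical axis), with their log2 difference from blood saline 3 h and its 95% interval (horizontal axis; filled points are called at a limma adjusted p under 0.05). Pidd1, Tp53inp1, Gadd45b and Mcl1 lie above 0 and Sesn1 and Ptp4a3 below 0 after both treatments.

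Regulators of p53 and DNA damage kinases were called for 0 of 14 tested genes after EIH in blood at 3 h, where 4 had an unadjusted p under 0.05 beside 25.4% of all genes, and for 0 of 13 after AMPH, where 0 had one beside 22.2%. Mdm4, the partner of Mdm2 in holding p53 in check, differed by -0.03 after EIH and -0.28 after AMPH (limma adjusted p = 0.982 and 0.793). Among 12 other inhibitors of cyclin-dependent kinases and BTG/TOB genes 1 was called after each treatment, beside 12.5% of all genes after EIH and 8.37% after AMPH. Btg1 differed by -0.72 after EIH (limma adjusted p = 0.0303) and Tob1 by 2.16 after AMPH (0.0396). Both are antiproliferative genes, and each call ended in 7 of 9 fits without 1 array (adjusted p 0.0523 to 0.0849 and 0.0506 to 0.118), the exceptions being replicate 3 of the treated group and saline 1 day replicate 4.

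Among 16 other Bcl-2 family genes 2 rose and 1 fell after each treatment, beside 12.5% of all genes called after EIH and 8.37% after AMPH. Mcl1, which protects cells from apoptosis, rose by 1.34 after EIH (limma adjusted p = 0.00194) and by 1.05 after AMPH (0.0174). Bcl2l1, which encodes the survival protein Bcl-xL, rose by 0.89 after EIH (0.0097), and the death gene Bik rose by 1.75 after AMPH (0.0227). Bcl2, another survival gene, differed by -0.98 after EIH (0.0332) and -1.01 after AMPH (0.0374). The EIH calls of Mcl1 and Bcl2l1 held under every alternative run. The AMPH call of Mcl1 ended without saline replicate 1 or AMPH replicate 2 or 4 (adjusted p 0.0574 to 0.0633), that of Bik without saline replicate 1 or 3 or AMPH replicate 1 or 4 (0.0601 to 0.0659), and both Bcl2 calls in 7 of 9 fits without 1 array, with the same exceptions as for Btg1 and Tob1 (0.0545 to 0.0975 and 0.0655 to 0.112).

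Of the proliferation genes 0 of 27 tested were called in blood after EIH at 3 h, beside 12.5% of all genes. There 2 had an unadjusted p under 0.05, beside the 25.4% of all genes. After AMPH, with a list median of 0.00, 2 of 27 fell, a count near the 8.37% of all genes called. These were subunits of the replicative helicase: Mcm2 differed by -1.53 (limma adjusted p = 0.0334) and Mcm6 by -1.44 (0.0152). The Mcm6 call ended only without AMPH replicate 4 (0.057) among the arrays left out, and that of Mcm2 without saline replicate 1, 2 or 3 or AMPH replicate 1 or 2 (0.0639 to 0.117). At 1 day in blood, 1 of 92 tested genes of the 5 lists was called after AMPH, 1.09% beside 1.95% of all genes. After EIH 0 of 92 were called, beside 0.0512%. The called gene was Ccne1, cyclin E1, with a rise of 2.71 after AMPH (limma adjusted p = 0.0127). It went from 7.48, 6.81, 7.17 and 6.03 under saline to 10.25, 9.97, 8.73 and 9.39. The lowest saline value, 6.03, was that of replicate 4, the array that stood apart, and no fit of Ccne1 without it is given here. After EIH Ccne1 was at 10.28, 9.15, 9.23 and 9.29, also above every saline rat, with a difference of 2.61 ± 0.52 that was not called (limma adjusted p = 0.063), and AMPH minus EIH was 0.10 (adjusted p = 0.965). With only the compared groups in the fit the adjusted p for AMPH was 0.218.

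The same lists gave no call in choroid plexus at 3 h with all 20 arrays. Unadjusted p under 0.05 was reached after EIH by 5 of 23 p53 targets, 5 of 15 regulators, 3 of 12 arrest genes, 2 of 16 Bcl-2 family genes and 4 of 27 proliferation genes, beside 12.9% of all genes. After AMPH it was reached by 7, 6, 3, 1 and 4, beside 14.9%. The counts of the Bcl-2 family and proliferation lists lie near or below these shares. The largest difference among the targets was that of Gadd45b, at 1.75 after EIH (limma adjusted p = 0.174) and 1.82 after AMPH (0.136). Gadd45b was at 7.31, 7.01, 7.07 and 5.62 under saline, 8.78, 9.23, 7.54 and 8.45 after EIH, and 8.49, 9.28, 9.23 and 7.29 after AMPH. Its EIH pools did not overlap the saline pools, beside 16.1% of all genes, while the AMPH pool at 7.29 lay within the saline range. Ppm1d, a phosphatase that turns p53 signalling off, differed by 0.96 and 1.10 (limma adjusted p = 0.164 and 0.105), and Btg1 by 0.95 and 1.09 (0.151 and 0.0911). Without AMPH 1 day replicate 2, Gadd45b, Ppm1d, Btg1 and Btg3 were called after AMPH (limma adjusted p = 0.047, 0.0313, 0.0321 and 0.0461) and Mcl1 after EIH (0.0344). Without AMPH 3 h replicate 4, Gadd45b, Plk3, Ppm1d and Btg1 were called after AMPH (0.0322, 0.0354, 0.0205 and 0.0107).

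By the same test between the tissues at 3 h, 7 of 92 genes of the 5 lists were called for EIH, beside the 6.00% of all genes, and 7 of 91 for AMPH, beside the 3.11%. The EIH effect on Btg1 in choroid plexus minus that in blood was 1.67 and was called under every alternative run. The EIH effects of Zmat3 differed by 2.78, of Sesn1 by 2.24 and of Pidd1 by -1.48, each likewise called under every alternative (limma adjusted p of at most 0.0186). For AMPH the effects of Sesn1 differed by 1.91 and of Pidd1 by -2.11, again under every alternative. The effects of Btg1 differed by 1.55 for AMPH. The other calls were less firm. For EIH, the call of Daxx (0.75) ended in 13 of 16 fits without 1 array (limma adjusted p 0.0513 to 0.0956), that of Bcl2 (1.40) without blood EIH 3 h replicate 4 (0.0503), and that of Ccnb1 (1.44), a mitotic cyclin, without choroid plexus saline replicate 4 (0.0565). For AMPH, the call of Ccnb1 (1.33) ended in 11 of 16 such fits (0.0502 to 0.105), and that of Mcm2 (1.81) in 9 of 16 (0.0502 to 0.0825). The AMPH calls of Mcm6 (1.83) and Ppm1d (1.40) ended in 4 of 16 each (0.0538 to 0.0666 and 0.0501 to 0.0637), in both cases without choroid plexus saline replicate 4, choroid plexus AMPH replicate 3 or blood AMPH replicate 4, and further without blood saline replicate 1 for Mcm6 and choroid plexus AMPH replicate 1 for Ppm1d. Without the 7 pools that share a rat number, the calls of Daxx, Bcl2 and Ccnb1 for EIH ended (limma adjusted p 0.0506 to 0.123), as did those of Btg1, Ccnb1, Mcm2, Mcm6 and Ppm1d for AMPH (0.0594 to 0.113).

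Genes whose levels were most like those of Cdkn1a over the 24 blood arrays, among 6709 genes with a value on each, were Cd14, the lipopolysaccharide co-receptor of myeloid cells (Pearson r = 0.967), Upp1, uridine phosphorylase 1 (0.949), and Slc2a1, the glucose transporter GLUT1 (0.947). For Gadd45a they were Tlr2 (0.944), Trem1 (0.943) and Stat3 (0.935), and for Gadd45g Ckap4 (0.768), Ptgr1 (0.768) and Nudt9 (0.762). Without saline 1 day replicate 4, over 23 arrays and 7028 genes, they were Cd14 (0.965), Trem1 (0.960) and Rin2 (0.950) for Cdkn1a, Cd14 (0.951), Tlr2 (0.946) and Trem1 (0.945) for Gadd45a, and Sod1 (0.854), Gcnt2 (0.806) and Mt1 (0.804) for Gadd45g. The 3 nearest genes of Gadd45g thus all changed. More genes could also enter without that array, and the part of this in the change was not tested. These arrays share the treatment groups, so the likeness is a description. In choroid plexus the nearest to Cdkn1a over 20 arrays were Slco1c1, a thyroid hormone transporter (0.964), Rab3ip (0.953) and Daam1 (0.943). Without AMPH 1 day replicate 2 they were Slco1c1 (0.937), Lta4h (0.914) and Abcc8 (0.865). Among the members, Gadd45a was nearest to Cdkn1a in blood (0.886).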

How the data were processed

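Cy3-labelled cRNA, made from total RNA with an Agilent Quick Amp kit per the labels' protocols, was hybridised to rat arrays with 1 colour. The authors deposited linear intensity values of 14055 probes on 44 arrays, with 0 columns from outside the series; for their normalization, background correction and blank cells, the method is not given in the sources used here. Quantiles are close within the arrays of each time and differ between the times, so the arrays appear to form 2 scaled sets. Blanks made up 3.05% of values in choroid plexus and 8.57% in blood, and stayed missing. The number of arrays limits the precision.

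The platform annotation gives 1 symbol for 12926 probes, several for 0 and none for 1129; 11472 were named through their accession and 78 through a synonym. The probe with the highest mean over the 44 arrays stood for a gene. Intensities were used on the log2 scale, with a floor at 1 that no value reached. Each gene was fitted with limma 3.58.1 in R 4.3.3 (with data.table in version 1.17.8), taking group means and empirical Bayes moderation, over the 20 choroid plexus arrays, the 24 blood arrays, the 8 saline arrays of 3 h for the comparison of tissues, or all 44 for differences of effects between tissues. Testing a gene needed 2 or more values in every group compared. Calls are at an adjusted p (Benjamini-Hochberg, over all genes tested in that comparison of the 17) under 0.05. The fit was tested on simulated data. Differences carry the fit's standard errors and 95% intervals. Replicate numbers follow accession order and pair nothing. The titles name the rats and tie 17 blood arrays to pools. The main fits treated these arrays as separate samples, and shared rats were a block only in an alternative run. Pools that share a rat number are not wholly separate samples or carry a label in error, so p-values there measure a spread that may be wrong. Alternatives changed the normalization, the filter on low values, the prior, array weights, the probe, the arrays fitted and shared rats as a block; fits without the 2 arrays that stood apart were added after seeing the data.

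The members and gene lists were chosen with earlier results of these data known. Genes named beside the members are Mdm4 and, per list and comparison, up to 4 called genes with the largest differences or, with none called, 1 or 2 with the largest; genes that an array left out brought in, and Tp53inp1, Pidd1 and the further called genes beyond that number, were added after their values were seen. Likeness is the highest Pearson r among genes with a value on every array of the tissue. Promoters are from RefSeq, GRCr8. Python 3.11.15 with pandas 2.3.3 and matplotlib 3.10.9 made the figures.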

Additional observations from a re-analysis of the deposited data

Results flagged for a closer look

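Of 77 groups of 4 arrays, 4 held a member's value that stood far from the other 3, where chance flags about 1 in 20. Gadd45g was at 9.05 in blood AMPH 1 day replicate 3 against 8.65 to 8.71 in the rest of its group. Bbc3 was at 9.89 in choroid plexus AMPH 1 day replicate 2 against 8.24 to 8.39, and at 10.37 in blood EIH 3 h replicate 1 against 11.06 to 11.13. Bax was at 7.18 in blood AMPH 3 h replicate 1 against 9.27 to 9.43. The choroid plexus array is the one whose epithelium markers were low, and the part of that shift in its Bbc3 value was not tested.

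Differences in a treatment effect between times or tissues were called with limma for Cdkn1a and Gadd45a. The EIH effect on Cdkn1a in blood was smaller at 1 day than at 3 h by -2.93 log2 units (adjusted p = 0.0395; range over the alternatives given with the result), and that on Gadd45a by -1.79 (0.0332). The EIH effect on Cdkn1a at 3 h in choroid plexus minus that in blood was -2.88 (0.0184).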

How the results depend on the processing

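No member's called difference reversed under any alternative. In choroid plexus after AMPH at 3 h, 0 of 7 members were called; array weights gave 4 (Cdkn1a 0.93, Gadd45g 1.46, Bbc3 -0.40 and Ccng1 0.61) and leaving out 1 array gave 0 to 2. For choroid plexus AMPH 1 day against saline 3 h, leaving out 1 array gave 0 to 1 in place of 0. In blood after AMPH at 3 h, 2 were called; array weights gave 4, only the compared groups 1, and leaving out 1 array 1 to 3. For the EIH effect in blood at 1 day minus 3 h, 2 were called and leaving out 1 array gave 0 to 2. For the AMPH effect in choroid plexus minus blood, 0 were called, and array weights and only the compared groups gave 2 each. Fewer arrays in the fit is part of the construction of these alternatives. Otherwise the cause was not tested. The share of all genes called in each of these runs is not given here. These member counts by themselves thus say little about the members.

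Genes called moved more than members. Choroid plexus EIH 3 h called 35 genes, 0 to 164 without 1 array and 0 to 957 otherwise; AMPH 3 h called 16, 0 to 330 and 0 to 1212. Blood EIH 3 h called 1232, 802 to 1490 and 1056 to 1778; blood AMPH 3 h called 826, 425 to 1033 and 657 to 1441. With a random replicate block for arrays of the same rats, the comparison of tissues called 7 members and 5578 genes, the EIH effect between tissues 1 member (Cdkn1a, -2.95) and 675 genes, and the AMPH effect 0 members and 355 genes, so the block changed no member's call.

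The precision is limited by 4 arrays a group, which leaves 95% intervals of more than 1 log2 unit either side for Cdkn1a in blood. Choroid plexus at 1 day has no saline group of its own here, and in blood the treatments and the white cell shift occur in the same arrays.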
